A study of Mus musculus with 10 samples.

Results

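The ID proteins (inhibitors of DNA binding) and the E proteins that they bind were examined in T_reg cells after loss of Foxp3 protein. The members were chosen by gene name as the ID inhibitors Id1, Id2 and Id3 and the E protein partners Tcf3, Tcf4 and Tcf12, and the rows of all 6 were found among the 55809 gene rows of the deposited count files. T_reg cells from spleen and lymph nodes were profiled by bulk RNA-seq in 10 libraries. All mice carried Foxp3-AID, in which Foxp3 is fused to an auxin-inducible degron, and all received the auxin analog 5-ph-IAA for 14 days, so the controls carried the fusion allele and the drug as well. The 4 R26-WT libraries (replicates 1 to 4) came from mice without TIR1, which keep the protein. The 6 R26-TIR1(F74G) libraries (replicates 5 to 10) came from mice whose ROSA26 locus encodes TIR1(F74G), the plant E3 ligase subunit that directs the fusion protein to degradation when the drug is present. The labels give neither age nor sex, and the paths in the headers of all 10 files hold the word male. The Foxp3 allele also carries a ZsGreen reporter and Cre recombinase, and the ROSA26 allele an mCherry reporter. The study's methods describe a sort of CD4+ TCRβ+ ZsGreen+ cells, which for R26-TIR1(F74G) also had to be mCherry+, without naming these libraries, so under that scheme the gate differs between the groups. Nothing in the labels says whether the replicates of a group are separate mice, and p-values measure the spread between these libraries.

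E proteins are basic helix-loop-helix transcription factors that bind the E-box CANNTG as dimers and act throughout lymphocyte development. ID proteins have the helix-loop-helix but lack the basic DNA-binding region, so a dimer of an ID and an E protein cannot bind DNA. In T cells ID proteins are induced by T cell receptor, cytokine and BMP or TGF-beta signals, and in T_reg cells Id2 and Id3 are known to restrain E protein activity and the follicular regulatory fate. Tcf3 encodes E2A (the E12 and E47 proteins), Tcf12 encodes HEB and Tcf4 encodes E2-2, which is best known from plasmacytoid dendritic cells and B cells. Tcf7, despite its symbol, encodes an HMG-box factor outside this family.

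Each member is given by its place in the deposited annotation (build GRCm39). Id1 lies on chromosome 2 from 152578171 to 152579330 (plus strand), Id2 on chromosome 12 from 25143798 to 25147139 (minus strand) and Id3 on chromosome 4 from 135870808 to 135873066 (plus strand). Tcf3 lies on chromosome 10 from 80245348 to 80269481 (minus strand) and Tcf12 on chromosome 9 from 71749970 to 72019153 (minus strand). The place of Tcf4 is given with its values. In that annotation no other gene overlaps the exons of any member. In the later GENCODE release M39 exons of opposite-strand genes cover 41.1% of the exon bases of Id2, 20.9% of those of Id1, 11.8% of those of Id3 and 2.71% of those of Tcf4, and reads from such genes cannot be told from the member's own because the counting used no strand. Of the stretches of 50 bases in the transcripts, 0.218% for Id2, 0.296% for Tcf4 and 0.217% for Tcf12 recur in transcripts of genes elsewhere, and 0 of those of Id1, Id3 and Tcf3 do. The pseudogene Gm6175 holds all 8 such stretches of Id2.

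Since E proteins act through the E-box, the RefSeq windows of 250 bases before the annotated starts (GRCm39) were searched on both strands for any E-box (CANNTG). They were also searched for CAGCTG, a form that E proteins are known to prefer and that CANNTG includes, and for the GC-rich GGCGCC, which is known from BMP-responsive SMAD binding at Id genes. The search covered Id2, Id3, Tcf3 and Tcf12, of which Tcf12 had 3 windows. The stretches that lie outside the exons of the counted gene models are shown 5′ to 3′ on the strand of the gene, with the E-box in capitals, because they hold the E-boxes found near the starts of the induced ID gene and of E protein genes. The Id2 stretch is chr12:25146253-25146341 (minus strand, 89 bases, intronic in the deposited models), the Tcf3 stretch chr10:80269482-80269719 (minus strand, 238 bases, upstream of the gene) and the Tcf12 stretch chr9:72019154-72019351 (minus strand, 198 bases, upstream of the gene).
Id2: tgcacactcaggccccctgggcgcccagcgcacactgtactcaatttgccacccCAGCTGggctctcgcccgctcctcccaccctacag
Tcf3: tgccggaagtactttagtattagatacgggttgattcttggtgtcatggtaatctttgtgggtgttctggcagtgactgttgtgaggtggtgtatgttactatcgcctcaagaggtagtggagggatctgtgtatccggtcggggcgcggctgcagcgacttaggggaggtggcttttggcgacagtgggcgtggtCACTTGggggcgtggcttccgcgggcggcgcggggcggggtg
Tcf12: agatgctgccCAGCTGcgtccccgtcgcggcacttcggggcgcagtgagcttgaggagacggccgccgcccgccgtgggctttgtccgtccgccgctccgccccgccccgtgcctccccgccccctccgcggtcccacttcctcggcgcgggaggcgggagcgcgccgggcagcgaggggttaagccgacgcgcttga
The Id2 window held 1 E-box, CAGCTG, at 196 bases before the start. It also held 1 GGCGCC, at 231 bases before the start. The Tcf12 window shown held CAGCTG at 240 bases before the start, and a further Tcf12 window held a CANNTG at 149 bases. The Tcf3 window held the E-box form CACTTG at 54 bases before the start. The Id3 window and the third Tcf12 window held none of these motifs. Of all 32851 RefSeq windows of this length, 66.2% held a CANNTG, 13.0% the form CAGCTG and 9.59% the motif GGCGCC. These matches describe the letters and are not evidence of binding.

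Libraries held from 24158699 to 54795718 counted read pairs. Transcripts of the T_reg cell genes Foxp3, Cd4, Cd3e and Il2ra were present in every library, while the B cell genes Ms4a1 and Pax5 had at most 4 raw counts in any library. The B cell receptor genes Cd79a and Cd79b were detected, with up to 333 and 1341 raw counts in a library. The Foxp3 transcript, whose protein product is the target of the degron, had a log2 fold change of 0.07 (SE 0.25) and was not called. DESeq2 called 284 of 16363 tested genes at an adjusted p under 0.05 (1.74%), 229 of them higher in R26-TIR1(F74G) (1.40%) and 55 lower (0.336%). The median log2 fold change over all tested genes was 0.00063.

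Of the 6 members, all tested, DESeq2 called 1, Id2, which rose. None was called lower, and 2 members, Id2 and Id3, had an unadjusted p under 0.05, as did 6.86% of all tested genes. The edgeR quasi-likelihood test also called Id2 alone (0.373% of genes called). The other 5 members had DESeq2 adjusted p-values of 0.212 (Id3) or 0.99996. Bulk RNA-seq cannot tell a change in RNA per cell from a change in the share of cells that express a gene.

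**Figure D1:**
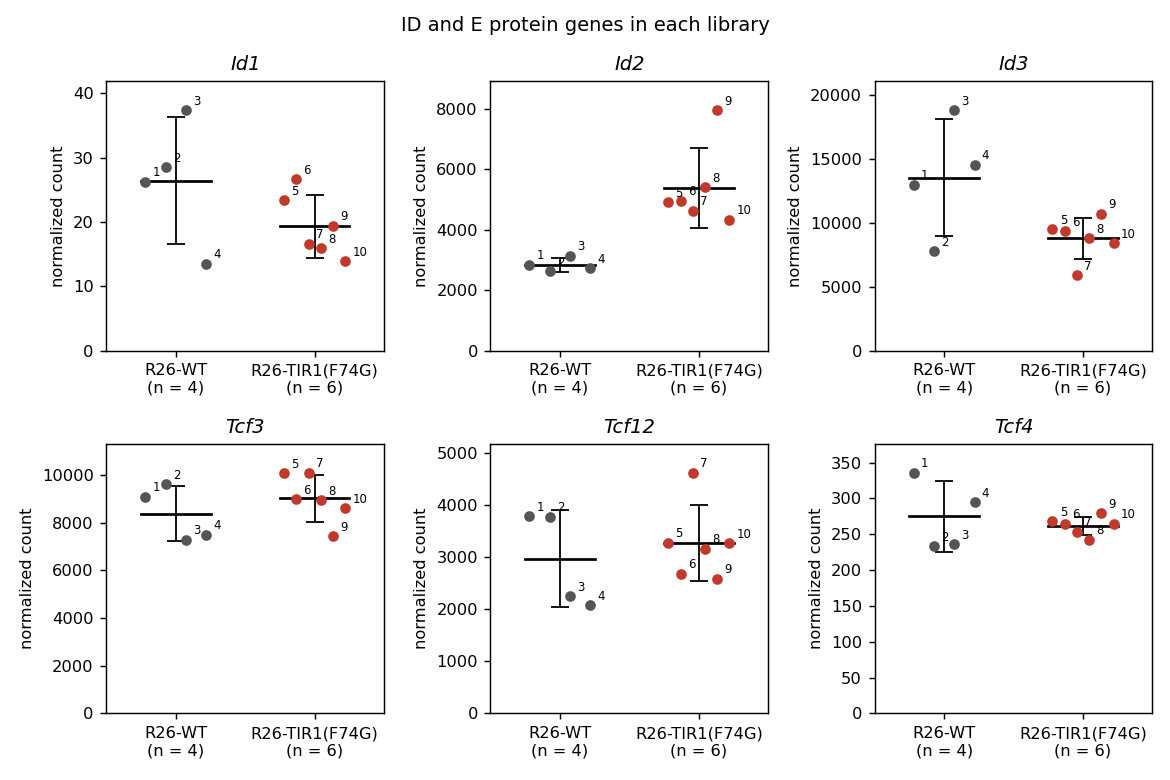
Normalized counts (counts divided by DESeq2 size factors) of the 6 members in each library, with 4 R26-WT points in grey and 6 R26-TIR1(F74G) points in red, numbered by replicate. Horizontal lines are group means and bars are SD. The Id2 values of the groups lie apart (2634 to 3139 against 4337 to 7962), whereas for the other 5 genes they overlap.

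Levels were compared between genes per length, as counts per base of merged exon length scaled to the same sum over all genes in each library (a TPM scale). The order of the mean levels was Id3 (403), Tcf3 (151), Id2 (123), Tcf12 (14.2), Id1 (1.31) and Tcf4 (0.672). Of all tested genes, 97.8% had a lower mean level than Id3, 92.4% than Tcf3, 90.3% than Id2, 52.6% than Tcf12, 17.9% than Id1 and 9.94% than Tcf4. Thus the T_reg cells carried abundant RNA of a pair of inhibitors, Id3 and Id2, and of a single E protein gene, Tcf3.

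In R26-WT the levels of Id3 (317 to 648), Tcf3 (111 to 174), Id2 (70.9 to 82.6) and Tcf12 (8.50 to 17.8) did not overlap. In R26-TIR1(F74G) the levels of Id2 (125 to 214) overlapped those of Tcf3 (121 to 192). Id2 had the higher level in replicate 9 (214 against 121), and in replicate 8 both were at 157.6. Id1 and Tcf4 were neighbours with overlapping levels in R26-WT (0.741 to 1.99 and 0.532 to 0.871) and without overlap in R26-TIR1(F74G) (at least 0.841 for Id1 and at most 0.713 for Tcf4). Merged exons count every annotated isoform, 27382 bases for Tcf4 and 15529 for Tcf12 against 1160 for Id1, 1791 for Id3, 2438 for Id2 and 4039 for Tcf3, so the levels of Tcf4 and Tcf12 per length are low estimates where shorter isoforms are used.

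Id2 rose after Foxp3 loss. Its normalized counts in the 4 R26-WT libraries were 2839, 2634, 3139 and 2720, and in R26-TIR1(F74G) the lowest was 4337, the median 4939 and the highest 7962. All 6 R26-TIR1(F74G) libraries lay above all 4 R26-WT libraries, a separation seen for 2.37% of tested genes in either direction. The means were 2833 ± 221 (SD, n = 4) and 5368 ± 1320 (SD, n = 6), and the log2 fold change was 0.92 with an SE of 0.17 (DESeq2 adjusted p 3.71e-05, and 0.0390 by edgeR). This is a 1.89-fold increase with a 95% interval from 1.49 to 2.40, and Id2 ranked 57th by adjusted p among the tested genes.

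The R26-WT values of Id2 were close together and the R26-TIR1(F74G) values were spread by replicate 9 (7962), with the other 5 between 4337 and 5398. Without replicate 9 the log2 fold change was 0.78 and Id2 was again called. Id2 was called in all 17 alternative fits, with log2 fold changes from 0.78 to 0.98.

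Most transcripts of proliferation were, like Id2, higher in R26-TIR1(F74G) than in R26-WT. Of the 16 proliferation genes, all tested, DESeq2 called 14 higher and 0 lower and edgeR called 6 (median log2 fold change 1.48), and their summed normalized counts were 6585 to 8819 in R26-WT and 11925 to 18982 in R26-TIR1(F74G). Within R26-TIR1(F74G) this sum did not follow Id2. It was highest in replicate 7 (18982), where Id2 had 4631 normalized counts, and was 13625 in replicate 9, where Id2 was highest. The part of the proliferation genes in the result was not tested. Id2 is also expressed by NK cells, activated CD8 T cells and dendritic cells, so genes of such cells are given beside it. Whether such cells contributed to the Id2 counts was not tested. Of the 9 CD8 and NK cell genes 8 were tested and 1 was called, Eomes, a T-box factor that rose from 109 ± 29.8 to 302 ± 63.1 normalized counts (SD, n = 4 and 6, log2 fold change 1.47, DESeq2 adjusted p 4.54e-08). The summed level of these genes overlapped (2586 to 3317 in R26-WT, 2229 to 3219 in R26-TIR1(F74G)), Cd8b1 was the most abundant of them (1478 ± 284 and 1265 ± 106), and the cytotoxic genes Prf1 (647 ± 51.4 and 619 ± 86.1) and Nkg7 (640 ± 102 and 460 ± 220) were detected as well. Nkg7 was not called (−0.48, SE 0.29) except without R26-TIR1(F74G) replicate 9, where it was called lower (−0.76, DESeq2 adjusted p 0.00812). Gzma was scarce and not called (14.5 ± 8.73 and 26.8 ± 12.6, log2 fold change 0.91, SE 0.51), Cd8a, Klrd1 and Klrb1c had mean normalized counts of at most 15.8 in either group, and Ncr1 was at 0 in every library. Of the 8 myeloid genes 4 were tested and 0 called (0 by edgeR, 0 with an unadjusted p under 0.05), with summed levels of 85.4 to 138 and 94.6 to 178. Cd68 made up most of that sum (70.2 ± 20.2 and 75.8 ± 17.3), Fcgr3, Itgam and Lyz2 had mean normalized counts of at most 17.3 in either group, and Itgax and Csf3r were at 0 in every library.

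Id3, the most abundant member, had lower mean counts in R26-TIR1(F74G) but was not called. Its normalized counts in R26-WT were 12954, 7756, 18813 and 14519, and in R26-TIR1(F74G) the lowest was 5917, the median 9060 and the highest 10695. Replicates 1, 3 and 4 of R26-WT lay above every R26-TIR1(F74G) library, and R26-WT replicate 2 lay within their range. The means were 13511 ± 4567 (SD, n = 4) and 8768 ± 1602 (SD, n = 6). The log2 fold change was −0.62 (SE 0.23, 95% interval −1.07 to −0.18). The unadjusted p of 0.00640 did not survive adjustment over all genes (DESeq2 adjusted p 0.212, edgeR adjusted p 0.422).

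The call of Id3 depended on the fit. It was called lower without R26-WT replicate 2 (−0.81, DESeq2 adjusted p 0.00282, with 0.538% of genes called lower), with 1 surrogate variable as a covariate (−0.46, DESeq2 adjusted p 7.19e-04, 1.68% called lower) and with the trend on gene length removed from each library (−0.54, DESeq2 adjusted p 0.0370, 0.617% called lower). In the other 14 alternatives it had the same sign and was not called. The surrogate variable is estimated from the same counts and moved with the gene length trend described next, so these 2 fits are not separate evidence.

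**Figure D2:**
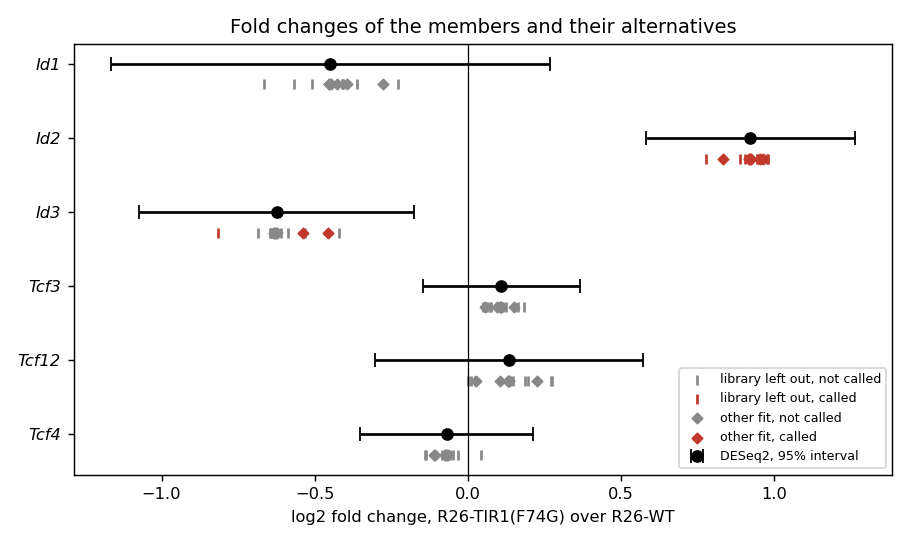
Log2 fold changes of the 6 members, R26-TIR1(F74G) over R26-WT, from DESeq2 (black points with 95% intervals). Below each, tick marks are fits without a single library and diamonds are other fits, in red where the adjusted p was under 0.05. Id2 is red in all 17 alternatives and Id3 in 3, and the intervals of Id1, Tcf3, Tcf12 and Tcf4 include 0.

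A trend on gene length ran through the libraries within both groups. It was measured as the slope of the log2 ratio of each gene to its mean over libraries on its log2 exon length. The slopes ran from −0.14 to 0.11 in R26-WT and from −0.087 to 0.17 in R26-TIR1(F74G). The highest slopes belonged to R26-WT replicate 2 and R26-TIR1(F74G) replicate 7, the libraries with the lowest Id3 counts of their groups (7756 and 5917). R26-WT replicates 3 and 4 had the lowest slopes, and there the short Id3 was highest and the long Tcf12 lowest. With the trend removed, Id3 had 13938, 8846, 15946 and 12865 normalized counts in R26-WT and 7045 to 10061 in R26-TIR1(F74G), so R26-WT replicate 2 still lay within the other group. The order of the 10 libraries on the surrogate variable was the reverse of their order by slope, from R26-WT replicate 3 (slope −0.14, surrogate variable 0.45) to R26-TIR1(F74G) replicate 7 (slope 0.17, surrogate variable −0.58). The spread of Tcf12 in R26-TIR1(F74G) narrowed from 2582 to 4620 before to 2988 to 3447 after.

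**Figure D3:**
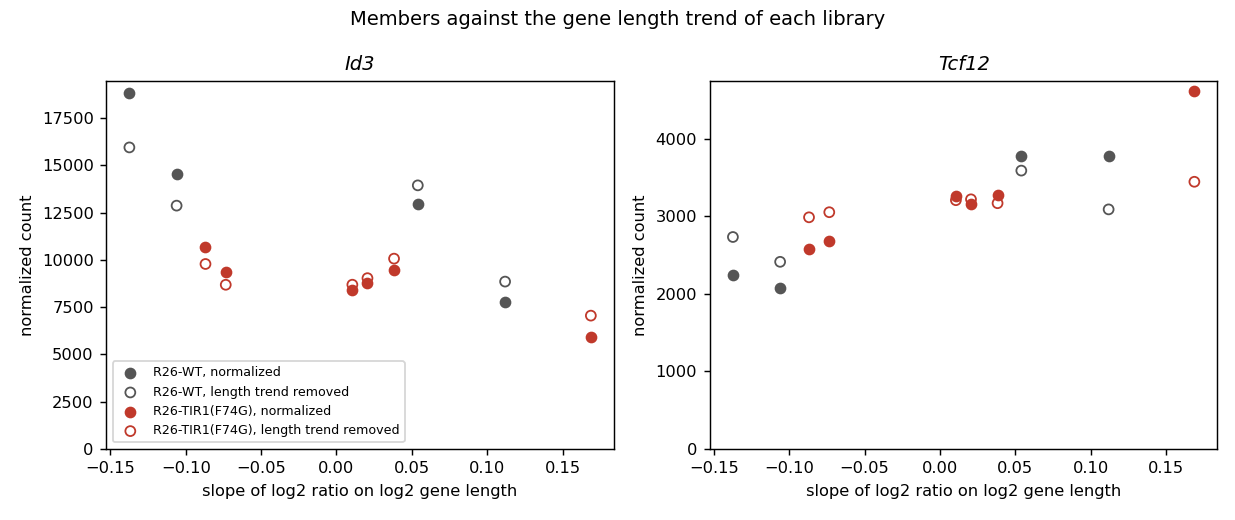
Normalized counts of Id3 and Tcf12 in each library against the slope of that library's log2 ratios on log2 gene length, as deposited and size-factor scaled (filled) and with the length trend removed (open). R26-WT is grey (n = 4) and R26-TIR1(F74G) red (n = 6). Id3 counts are highest and Tcf12 counts lowest in the R26-WT libraries with slopes of −0.14 and −0.11.

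The shares of Id2 and Id3 in the ID transcripts did not overlap between the groups. On the TPM scale Id2 made up 13.8%, 19.9%, 10.9% and 12.1% of the summed ID level in the R26-WT libraries, and 27.5% at the lowest, 29.5% at the median and 36.4% at the highest in R26-TIR1(F74G). No R26-TIR1(F74G) library overlapped R26-WT. The share of Id3 was 85.6% ± 4.10 (SD, n = 4) in R26-WT and 68.8% ± 4.03 (SD, n = 6) in R26-TIR1(F74G), and the level of Id3 was 4.01 to 8.16 times that of Id2 in R26-WT and 1.74 to 2.63 times in R26-TIR1(F74G). These shares include the called change of Id2 and are given without a test.

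The summed ID level overlapped between the groups, with 578 ± 137 (SD, n = 4) in R26-WT and 494 ± 69.9 (SD, n = 6) in R26-TIR1(F74G). The summed E protein level was 155 ± 35.9 and 173 ± 29.1. The ratio of the sums was 2.07 to 6.04 in R26-WT and 1.86 to 4.58 in R26-TIR1(F74G), also overlapping. RNA levels do not give the amounts of the proteins.

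**Figure D4:**
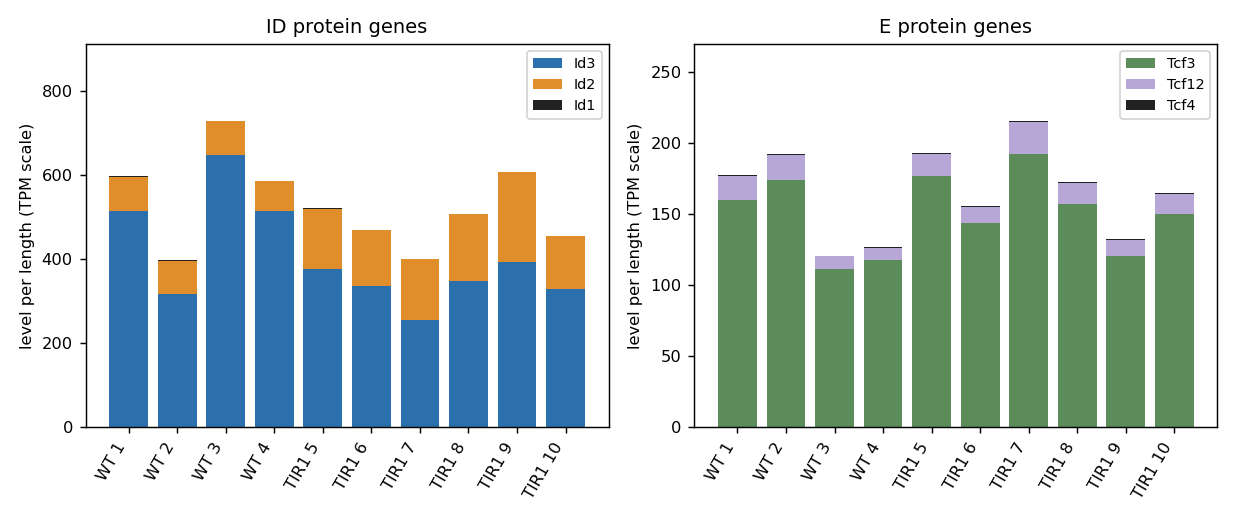
Levels per length (TPM scale) of the ID genes (left) and E protein genes (right) stacked for each library, labelled WT for R26-WT (n = 4) and TIR1 for R26-TIR1(F74G) (n = 6). The Id2 band is 70.9 to 82.6 in R26-WT and 125 to 214 in R26-TIR1(F74G), whereas the height of the ID bars overlaps, and Tcf3 makes up most of each E protein bar.

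Id1, the third inhibitor, was scarce. Its raw counts were 16 to 46 in R26-WT and 9 to 26 in R26-TIR1(F74G). Its normalized counts were 26.3, 28.5, 37.4 and 13.5 in R26-WT, and in R26-TIR1(F74G) the lowest was 13.9, the median 18.1 and the highest 26.7. The groups overlapped, and the log2 fold change of −0.45 (SE 0.37) had a 95% interval from −1.17 to 0.27, which spans fold changes from 0.446 to 1.20. Id4, the remaining member of the ID family, had at most 1 raw count in any library and was not tested.

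Tcf3, which supplied 91.3% ± 1.41 (SD, n = 4) of the summed E protein level in R26-WT and 91.1% ± 1.16 (SD, n = 6) in R26-TIR1(F74G), was not called. Its normalized counts were 9094, 9607, 7294 and 7507 in R26-WT, and in R26-TIR1(F74G) the lowest was 7441, the median 8971 and the highest 10105. The groups overlapped over most of their ranges. The log2 fold change was 0.11 (SE 0.13), and its 95% interval in fold change ran from 0.903 to 1.29.

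Tcf12 had 3782, 3774, 2246 and 2078 normalized counts in R26-WT, in which replicates 1 and 2 were well above replicates 3 and 4. In R26-TIR1(F74G) the lowest was 2582, the median 3209 and the highest 4620. The log2 fold change of 0.14 (SE 0.22) was not called, with a 95% interval from −0.30 to 0.57. Its share of the summed E protein level was 8.25% ± 1.45 (SD, n = 4) and 8.51% ± 1.18 (SD, n = 6).

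Tcf4 (chromosome 18, 69476427 to 69822150, plus strand) had 336, 233, 236 and 295 normalized counts in the 4 R26-WT libraries. In R26-TIR1(F74G) the lowest was 242, the median 265 and the highest 279, all within the R26-WT range. The log2 fold change was −0.07 (SE 0.14, 95% interval −0.35 to 0.21), and the share of the E protein level was 0.448% ± 0.0919 (SD, n = 4) and 0.395% ± 0.0612 (SD, n = 6). Because Tcf4 marks plasmacytoid dendritic cells and B cells, their genes are given beside it. Of 6 plasmacytoid dendritic cell genes 2 were tested (Ccr9 and Pacsin1) and 0 called, by DESeq2 and by edgeR and at an unadjusted p under 0.05, with summed levels of 5464 to 7272 and 5163 to 6295. Siglech had at most 5 raw counts in any library, and Klk1 and Cox6a2 were at 0 throughout. Of 8 B cell genes 3 were tested and 0 called by either tool or at an unadjusted p under 0.05, with summed levels of 851 to 1397 and 731 to 1189. Cd79b made up most of that sum (R26-WT 925 ± 197 and R26-TIR1(F74G) 737 ± 152 normalized counts, SD, n = 4 and 6, log2 fold change −0.33, SE 0.20), followed by Cd79a (226 ± 46.9 and 192 ± 29.5, log2 fold change −0.24, SE 0.18).

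The genes that act with or upstream of the members were counted list by list. Of 19 other helix-loop-helix proteins and E protein cofactors 11 were tested, and 0 were called by DESeq2 or edgeR and 0 had an unadjusted p under 0.05 (median log2 fold change −0.03). Ldb1, which bridges LIM-domain and E protein complexes, was at −0.03 (SE 0.072), and Crebbp, a histone acetyltransferase recruited by E proteins, at −0.05 (SE 0.15). All 3 genes of ID protein turnover were tested and 0 called, by either tool or unadjusted (median 0.06), among them Usp1, a deubiquitinase that stabilizes ID proteins (0.06, SE 0.18), and Fzr1, the APC/C activator that promotes their degradation (0.06, SE 0.075).

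Of 19 genes of BMP and TGF-beta signalling to the Id genes 16 were tested and 0 called by DESeq2 or edgeR (median 0.08). An unadjusted p under 0.05 was found for 2 of them, and for 6.86% of all tested genes. Tgfbr2, the type II TGF-beta receptor, was at 0.29 (SE 0.29) and Smad4, the common SMAD, at 0.03 (SE 0.12). Over the fits without a library Tgfbr2 ranged from 0.11 to 0.52 and was not called. The 2 with an unadjusted p under 0.05, named after their values were seen, were the ubiquitin ligase gene Smurf2 (0.57, SE 0.21, DESeq2 adjusted p 0.217) and the BMP receptor gene Bmpr2 (0.49, SE 0.19, DESeq2 adjusted p 0.276). Smurf2 was called higher with the length trend removed (0.53, DESeq2 adjusted p 0.0134), with a surrogate variable (0.45, DESeq2 adjusted p 2.73e-05) and without R26-WT replicate 2 (0.74, DESeq2 adjusted p 0.0238), and Tgfbr1 was called lower with a surrogate variable (−0.21, DESeq2 adjusted p 0.0275). All 8 T cell receptor and STAT inputs were tested and 0 called, by DESeq2, by edgeR or unadjusted (median 0.04). Stat3 was at 0.07 (SE 0.13) and Stat6 at 0.01 (SE 0.24).

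Of 15 E protein target genes 10 were tested and 0 called by DESeq2 or edgeR (median 0.07). An unadjusted p under 0.05 was found for 4 of them, and for 6.86% of all tested genes. Cd4, whose enhancer binds E proteins, was at 0.26 (SE 0.16) and Socs1 at 0.00085 (SE 0.19), a value whose sign depended on the scaling. The thymic targets Ptcra, Rag1 and Rag2 had at most 1 raw count in any library. The 4, named after their values were seen, were Cxcr5 (−0.57, SE 0.18, DESeq2 adjusted p 0.0801), Foxo1 (−0.27, SE 0.094, DESeq2 adjusted p 0.145), Cdkn1a (0.58, SE 0.24, DESeq2 adjusted p 0.401) and Socs3 (0.28, SE 0.14, DESeq2 adjusted p 0.726). The normalized counts of Foxo1 did not overlap between the groups (at least 21028 in R26-WT and at most 19693 in R26-TIR1(F74G)), as for 2.37% of tested genes. With a surrogate variable, a fit that called 4.54% of all tested genes (2.86% higher and 1.68% lower), 3 of the 10 were called, Cxcr5 and Foxo1 lower and Cd4 higher. Cxcr5 was also called lower without R26-WT replicate 4 (−0.69, DESeq2 adjusted p 0.0132) and without R26-TIR1(F74G) replicate 9 (−0.63, DESeq2 adjusted p 0.0418).

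Some genes of the states that ID proteins are known to influence were called, where 1.74% of all tested genes were. The lists were chosen with earlier results of these data known, and no test set their counts against that share. All 9 follicular T cell genes were tested and 1 was called, Tox2, an HMG-box factor (1.44, SE 0.40, DESeq2 adjusted p 0.0236, edgeR adjusted p 0.289, list median 0.12). Of the 8 resting T cell genes 1 was called, Tcf7, which encodes TCF-1 (0.43, SE 0.12, DESeq2 adjusted p 0.0257, edgeR adjusted p 0.121, list median −0.02). Of the 12 effector Treg genes 1 was called higher, the coinhibitory receptor gene Tigit (1.73, SE 0.45, DESeq2 adjusted p 0.0102, edgeR adjusted p 0.245), and 1 lower, Tnfrsf9, which encodes 4-1BB (−0.49, SE 0.11, DESeq2 adjusted p 5.65e-04, edgeR adjusted p 0.0510), with a list median of 0.12. Of the 10 fits without a library, Tox2 was not called in 4 (without R26-WT replicate 3 or 4 or R26-TIR1(F74G) replicate 8 or 9), Tigit in 3 (without R26-WT replicate 1, 3 or 4) and Tcf7 in 7 (without R26-WT replicate 3 or 4 or R26-TIR1(F74G) replicate 5, 6, 7, 8 or 10). With 1 surrogate variable Tox2 (1.48, DESeq2 adjusted p 0.0681) and Tigit (1.72, DESeq2 adjusted p 0.0551) were not called. With limma voom none of the 4 was called, at an adjusted p of 0.165 for Tox2, 0.195 for Tigit, 0.0562 for Tcf7 and 0.0564 for Tnfrsf9. Of the follicular genes not called with all libraries, Il21 was called higher without R26-TIR1(F74G) replicate 7 (1.28, DESeq2 adjusted p 0.0188). Cxcr5, which is in this list as well as among the E protein targets, was called lower with a surrogate variable (−0.58, DESeq2 adjusted p 0.00760) and in the 2 fits without a library given above.

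In the DESeq2 fit of all libraries with genotype alone, the 14 proliferation genes called were the only list calls that went beyond 2 genes. The 6 with the smallest adjusted p were Stmn1, a regulator of microtubules (log2 fold change 1.30, DESeq2 adjusted p 1.31e-14), Rrm2, a ribonucleotide reductase subunit (1.43, 3.39e-09), the mitotic kinase genes Cdk1 (1.39, 1.12e-08) and Aurkb (1.66, 5.60e-07), the chromosomal passenger gene Birc5 (1.56, 8.07e-06) and the cyclin gene Ccnb2 (1.83, 2.10e-05). All but Ccnb2 were called by edgeR as well (Ccnb2 had an adjusted p of 0.0639 in edgeR and 0.0675 in limma voom). In the fits without a library 11 to 14 of the 16 genes were called.

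**Figure D5:**
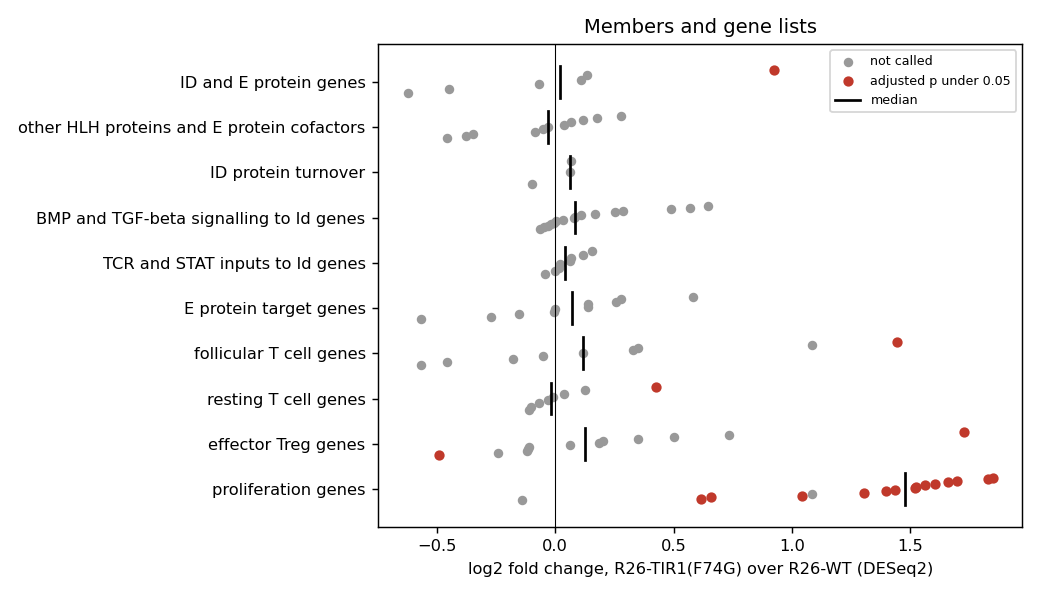
Log2 fold changes (R26-TIR1(F74G), n = 6, over R26-WT, n = 4, DESeq2) of the 6 members and of the tested genes of each list, 1 point a gene, red where the adjusted p was under 0.05, with black lines at the medians. Calls are 14 of 16 in the proliferation list, 0 in the 5 lists of cofactors, turnover, upstream signals and E protein targets, and Id2 alone among the members.

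The remaining cell type lists gave no further calls. Of 7 Treg genes all were tested and 0 called by DESeq2 or edgeR (Ctla4 had an unadjusted p under 0.05), with summed levels of 148727 to 157571 in R26-WT and 142051 to 150105 in R26-TIR1(F74G). Cd3e and Cd3d, subunits of the T cell receptor complex, were the most abundant, at −0.05 (SE 0.094) and −0.11 (SE 0.17). Il2ra, which encodes the IL-2 receptor alpha chain, was at −0.29 (SE 0.20) and was called lower with a surrogate variable (−0.40, DESeq2 adjusted p 5.20e-12), while Cd4, at 0.26, was called higher in that fit (0.20, DESeq2 adjusted p 0.0347). Of the plasma cell, endothelial and stromal, and erythroid genes 1 each was tested and 0 called, by either tool or unadjusted. The tested gene was Pecam1 in the endothelial and stromal list (9391 ± 1546 and 9068 ± 1887 normalized counts, −0.05, SE 0.18), where Cdh5 had at most 2 raw counts in any library, and Alas2 in the erythroid list (15.0 ± 6.92 and 8.37 ± 3.89, −0.89, SE 0.51). Mzb1 and Tnfrsf17 of the plasma cell list were at 0 in every library. Its tested gene Xbp1, a factor of the secretory stress response that is not restricted to plasma cells, made up nearly all of the list's summed level (8500 to 10474 in R26-WT, 8601 to 11595 in R26-TIR1(F74G)) and had a log2 fold change of −0.00042 (SE 0.12).

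The genes whose pattern over the 10 libraries was most like that of each member were found by Pearson's r of log2(normalized count + 1), as a description of libraries that share their length trend and genotype. For Id2 they were Slamf6 (r 0.98), Il4 (0.95) and Cdca8 (0.95), each of which was itself called higher in R26-TIR1(F74G). For Id3 they were Haus8 (0.98), Zfand6 (0.97) and Tcn2 (0.97), none of them called. For Tcf3 they were Gtf2ird1 (0.98), Obi1 (0.98) and Pcx (0.97) and for Tcf12 Tut7 (0.99), Ints3 (0.99) and Dnajc3 (0.99). Tcf4 had no gene as close, with r of 0.81 for Reep3, 0.71 for Grb7 and 0.70 for Plxna1. Id1 was below the count minimum of 50 for this comparison.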

How the data were processed

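Each deposited file gave 1 library's raw counts of read pairs by gene name, which the authors had not normalized. Per the file headers, featureCounts 2.1.1 counted primary alignments on GENCODE M30, with mapping quality 30 or more and both mates on the same chromosome, and with no strand option. For alignment to mm39 the labels list Bowtie2 and the study's methods STAR, and the methods name another featureCounts version. The cDNA was amplified by PCR without any named molecular identifiers, so spread from amplification adds to counting error.

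DESeq2 1.42.0 (R 4.3.3) compared the genotypes by a two-sided Wald test, with no other term, on every gene whose mean count reached 10. P-values were adjusted over all tested genes (Benjamini-Hochberg) and called under 0.05. Counts were divided by DESeq2 size factors to give normalized counts. Alternatives were edgeR 4.0.16 (quasi-likelihood), limma 3.58.1 voom with quality weights, TMM factors, other count minimums (none and 50), 1 surrogate variable (sva 3.50.0), removal of a lowess trend on log2 exon length, and each library left out in turn. The fits were first tested on simulated data. Libraries of a group differed by more than sampling noise in every pair, and none was merged.

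The members, gene lists and alternatives were chosen with earlier results of these data known. Of each pathway list, called genes are named (at most 6, by smallest adjusted p) and, where none was called, the 2 with the highest mean count. Genes of the cell type lists are outside that rule, and those named were chosen after their values were seen. Promoter sequences are from RefSeq (GRCm39), with no entry for Id1 and none printed for Tcf4. For 4 members 6 windows were searched.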

Additional observations from a re-analysis of the deposited data

Results flagged for a closer look

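A library was flagged where its gap to the nearest other library of its group was large against the range of the group. Of 70 groups of values examined (the members, Foxp3, total counts, summed lists, and the shares, sums and ratios of the ID and E protein levels), 9 were flagged, where chance gives about 1 in 20, or 3.5. Several share a library. In R26-TIR1(F74G) replicate 9 the normalized count of Id2 was 7962, where the remaining libraries had 4337 to 5398. In the same library the summed follicular T cell genes stood at 20270 (10812 to 12632 in the others) and the summed effector Treg genes at 36063 (24571 to 27718). R26-TIR1(F74G) replicate 7 had 4620 normalized counts of Tcf12 (2582 to 3272 in the others), 16059 of Foxp3 (6778 to 9851) and 178 of the summed myeloid genes (94.6 to 114). R26-WT replicate 2 had 31771 summed counts of the other helix-loop-helix proteins and cofactors (28515 to 28977) and 157571 of the Treg genes (148727 to 149769). R26-TIR1(F74G) replicate 8 had 11831 of the ID turnover genes (11027 to 11300).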

How the results depend on the processing

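Id2 kept its direction and its call in all 17 alternatives (0.78 to 0.98, adjusted p from 1.23e-12 to 0.0390). Id1 and Tcf3 kept their sign and were never called, and Id1 was not tested at a mean count of at least 50. Over the fits without a library Id1 ranged from −0.67 to −0.23 and Tcf3 from 0.049 to 0.18. Id3 kept its sign, and was called with 1 surrogate variable (−0.46), with the length trend removed (−0.54) and without R26-WT replicate 2, with a range of −0.81 to −0.42 over the fits without a library. The count of members called was 2 in those 3 fits and 1 in the rest (1 to 2 without a library). Tcf4 ranged from −0.14 to 0.042 over the fits without a library and turned positive without R26-WT replicate 1, and Tcf12 ranged from −0.00056 to 0.27 and turned negative without R26-WT replicate 4. The cause was not tested.

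Against 284 genes, edgeR called 61, limma voom 80, and requiring a change past 1 on the log2 scale in either direction kept 156, which did not include Id2 (0.92). With 1 surrogate variable 743 were called (468 higher, 275 lower), and 187 to 346 without a library, with the lowest count without R26-WT replicate 4. With 1 surrogate variable the uncalled values of Foxp3 (−0.096), Usp1 (−0.014), Smad4 (−0.014) and Stat6 (−0.082) turned negative. Socs1 turned negative with TMM factors (−0.0070), edgeR (−0.0070), limma voom (−0.094) and a mean count of at least 50 (−0.0019). Without a library the ranges were −0.15 to 0.24 for Foxp3, −0.15 to 0.048 for Crebbp, −0.045 to 0.19 for Usp1, −0.016 to 0.099 for Smad4, −0.013 to 0.16 for Stat3, −0.14 to 0.20 for Stat6 and −0.11 to 0.12 for Socs1. No paired analysis was possible because R26-WT and R26-TIR1(F74G) have different replicate numbers. At 9 to 46 raw counts a library, depth limits what can be said of Id1.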
